A study of Mus musculus with 6 samples.

Results

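Amino acids cross membranes through carriers of the solute carrier (Slc) superfamily, and 41 of the 14492 genes in a deposited table of mouse liver RNA belong to 7 of its families that carry amino acids or close relatives. The members were chosen by symbol, as genes of the families Slc1, Slc3, Slc6, Slc7, Slc36, Slc38 and Slc43. The choice was made with earlier results of these data known. A further gene that matches the symbol rule is not reported here, so the 41 are not every match. The symbol rule also takes Slc7a6os, a neighbour of Slc7a6 on the opposite strand that encodes no transporter.

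Livers came from male C57BL/6J mice (strain tag C57BL/6), aged 8 weeks at the start, that received tail vein injections and were fed a high-fat diet for 2 weeks. In 3 mice the injection was labelled Chrna4-overexpressing adenovirus, a viral gene carrier; Chrna4 encodes a subunit of a nicotinic receptor for acetylcholine. In the other 3 it was labelled vehicle. A second label speaks of adenovirus for all mice, and the labels do not state whether the vehicle held a virus without Chrna4, nor which promoter drove the transgene. High-fat feeding was common to both groups. No batch, cage or day is given, so a difference of that kind between the groups could not be told apart from the injection. The p-values set the difference between the groups against the spread between livers within each group.

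Polyadenylated RNA was read as 150 bp pairs, and 14959338 to 17023536 reads were recovered per Chrna4-labelled library, against 15191611 to 22440334 per vehicle library. Levels are in CPM, the reads of a gene in 1000000 reads, counted on a library total that was first multiplied by a scaling factor. Mouse Chrna4 itself had 3.70, 2.17 and 3.82 CPM in the libraries labelled Chrna4 and 1.70, 4.99 and 3.38 CPM in vehicle libraries, so no rise of the gene itself was seen (log2 fold change 0.0069, 95% interval -0.68 to 0.69). Whether transcripts of the vector were counted as mouse Chrna4 is not stated, and every direction below follows the labels. The 5 hepatocyte markers, such as the albumin gene Alb, summed to 61674 to 69227 CPM in Chrna4-labelled livers and 72240 to 78996 CPM in vehicle livers. The median log2 fold change of these markers was -0.20 with the authors' scaling and 0.14 with plain library totals. Vehicle replicate 1 stood apart by rank correlation, with 0.978 and 0.974 to the other vehicle libraries. All other pairs within a group had at least 0.989. Chi-square per degree of freedom, which rises with difference beyond sampling noise, was 47.5 and 65.7 with vehicle replicate 1. It was 49.1 for the other vehicle pair and 10.3 to 17.7 for Chrna4-labelled pairs.

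Carriers differ in how they move amino acids. System A and N carriers of the Slc38 family pull small neutral amino acids and glutamine into the cell with sodium, while the light chains of the Slc7 family exchange an amino acid inside for another outside and reach the surface only when bound to a heavy chain, Slc3a2 or Slc3a1. Hepatocytes take up alanine and glutamine from portal blood for glucose and urea production. Transcripts of several carriers rise when amino acids are scarce, through the transcription factor ATF4.

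Exchangers and facilitated carriers of the families Slc7 and Slc43 and the creatine carrier Slc6a8 were among the members that rose, and the system A carrier Slc38a2 was the most abundant member that fell. With limma on log2(CPM + 1) and Benjamini-Hochberg adjustment over all genes, 30 members had a mean of at least 1 CPM and were tested, and 11 were not. Of the 30, 13 passed an adjusted p of 0.05, which is 43.3%, beside 24.5% of all 12099 genes tested. There were 9 higher members (14.2% of all genes were higher) and 4 lower ones (10.3% of all genes were lower). At least a 2-fold rise was fitted for 7 of the 9 and a 2-fold fall for 0 of the 4, beside 910 of the 2962 called genes over the whole table with a change of at least 2-fold in either direction. The median log2 fold change by limma was 0.088 over the 30 members and -0.0067 over all genes. Values of the groups did not overlap in 19 of the 30, or 63.3%, beside 43.0% of all genes. The difference between these shares was not tested. Without Chrna4-labelled replicate 1, 2 and 3 the calls numbered 8, 6 and 8, beside 1866, 1442 and 1696 of all 12099 genes. Called in each of the 6 fits that left out a library were 6 members: Slc6a8, Slc7a7, Slc7a1, Slc43a2, Slc38a2 and Slc6a16.

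Scaling bears on the falls. The authors' scaling factors were 1.11 to 1.14 in Chrna4-labelled libraries and 0.853 to 0.922 in vehicle libraries, and without them the median of all genes moved up by 0.31 on the log2 scale. With plain library totals, 20 members were called, where 40.1% of all genes were. Of them 18 were higher and 2 lower, where 37.3% of all genes were higher and 2.82% lower (limma). Fold changes below keep the authors' scaling and are relative to the bulk of genes.

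**Figure D1:**
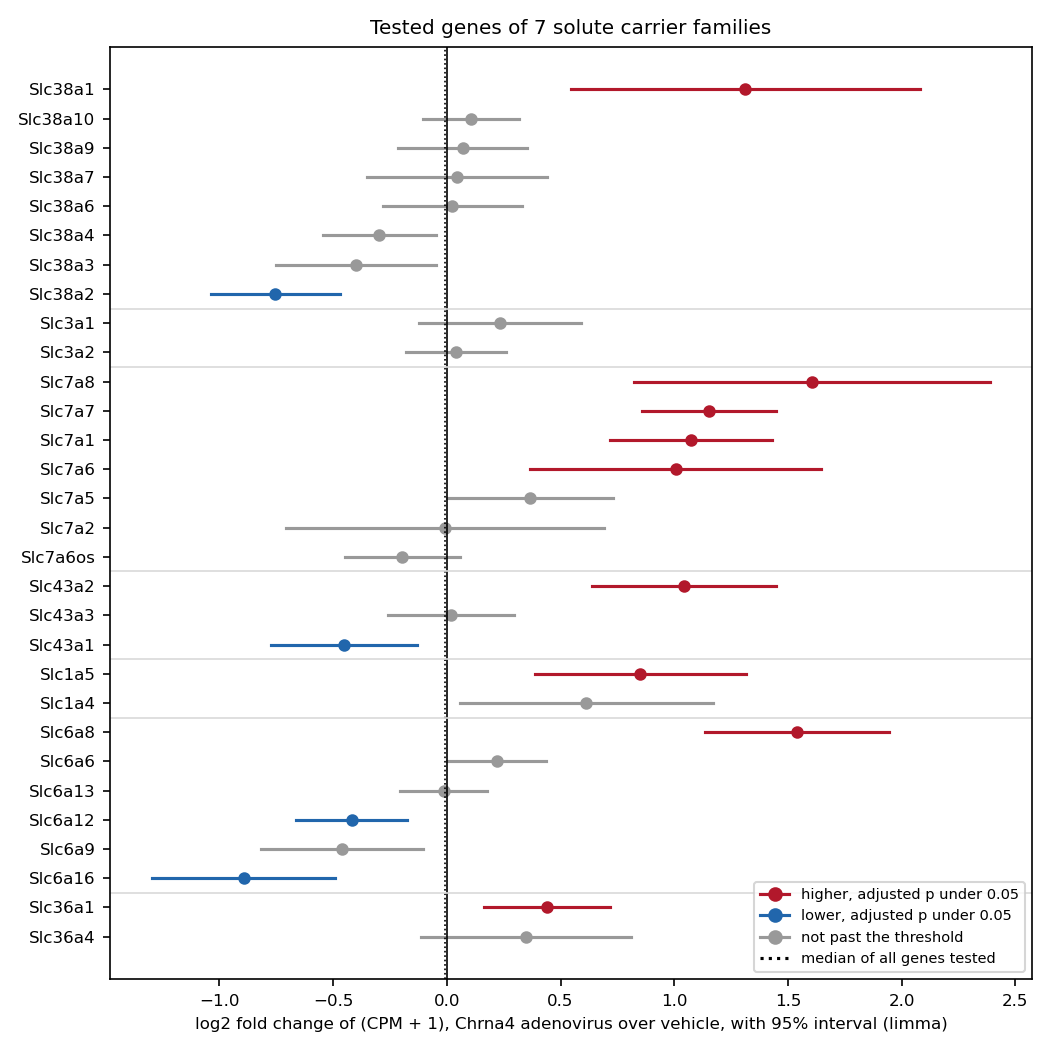
Log2 fold change of CPM + 1 with its 95% interval from limma, Chrna4 adenovirus over vehicle, for the 30 tested genes by family; red and blue points passed an adjusted p of 0.05 and the dotted line is the median of all genes. The Slc7 family holds 4 of the 9 higher genes, and the lower genes lie in the families Slc38, Slc43 and Slc6.

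Several markers of immune cells and fibroblasts were also called higher, where 14.2% of all genes were higher and 10.3% lower. Of 10 Kupffer cell and macrophage markers, 6 were higher and 1 lower, and their sum was 873 to 947 CPM in Chrna4-labelled livers and 249.5 to 654 CPM in vehicle livers, lowest in vehicle replicate 1. Without that library 6 were higher and 4 lower, and 3 were higher without Chrna4-labelled replicate 2 or 3. With all libraries the lower one was Timd4 (log2 fold change -2.78, limma, adjusted p = 0.00147). Clec4f (-0.14), Vsig4 (0.16) and Marco (0.29) were not called, and the largest rises on the list were those of Gpnmb (4.41) and Trem2 (2.36). Within the sum, Cd5l averaged 383 CPM in Chrna4-labelled livers and 157 CPM in vehicle livers. Monocyte and neutrophil markers were higher in 6 of 7, with sums of 51.9 to 57.5 and 10.6 to 15.3 CPM in Chrna4-labelled and vehicle livers. T and NK cell markers were higher in 6 of 8, with sums of 42.9 to 54.1 and 7.10 to 22.2 CPM, and in 3 without any 1 of the Chrna4-labelled replicates. B and plasma cell markers were higher in 2 of 5, with sums of 27.0 to 42.1 and 5.16 to 9.76 CPM. Stellate cell and myofibroblast markers were higher in 5 of 9, with sums of 572 to 632 and 193 to 216 CPM. The largest rises on that list were those of the collagen genes Col1a1 (3.31), Col3a1 (2.99) and Col1a2 (2.52). Des (0.44), Acta2 (0.39), Reln (0.31) and Lrat (0.27) were not called.

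For the markers that follow, 14.2% of all genes were higher and 10.3% lower. Endothelial markers had 1 higher and 1 lower of 6, with sums of 247 to 298 CPM in Chrna4-labelled livers and 219 to 292 CPM in vehicle livers. Bile duct markers had 1 higher of 2 tested, and 0 without Chrna4-labelled replicate 1 or 3 or vehicle replicate 2, with sums of 52.6 to 82.0 and 41.4 to 72.5 CPM in Chrna4-labelled and vehicle livers. Hepatocyte markers had 1 lower of 5. Of other organs, the pancreatic gene Cela1 was lower (-1.64), and so was the neuronal gene Syt1 (-0.47), which was not called with plain totals and, leaving out 1 library, was called only without vehicle replicate 1. The kidney markers are not in the table used here. No tested marker was at 0 in all libraries of a group. The part that these cells have in the rises of Slc7a7, Slc7a8, Slc43a2, Slc38a1, Slc7a1, Slc7a6, Slc1a5, Slc6a8 and Slc36a1 was not tested, and in bulk RNA fewer or more cells of a type and less or more RNA per cell cannot be told apart.

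Per kilobase of merged exons, 3 carriers stood above the others. In Chrna4-labelled livers the glutamine carrier Slc38a3 averaged 300.3 CPM per kilobase, the system A carrier Slc38a4 288 and the cationic amino acid carrier Slc7a2 112. In vehicle livers the same genes averaged 395, 355 and 122 CPM per kilobase. The leading 3 held 76.6% to 78.4% of all member reads in Chrna4-labelled libraries and 79.5% to 81.2% in vehicle libraries. Next came Slc6a13, with 80.3 and 81.1 CPM per kilobase in Chrna4-labelled and vehicle livers, a carrier of taurine and GABA. The 9 genes that rose lay lower, from 0.336 to 10.2 CPM per kilobase in Chrna4-labelled livers and from 0.114 to 7.56 in vehicle livers. The length used is that of all annotated exons, which can exceed that of the transcripts present.

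**Figure D2:**
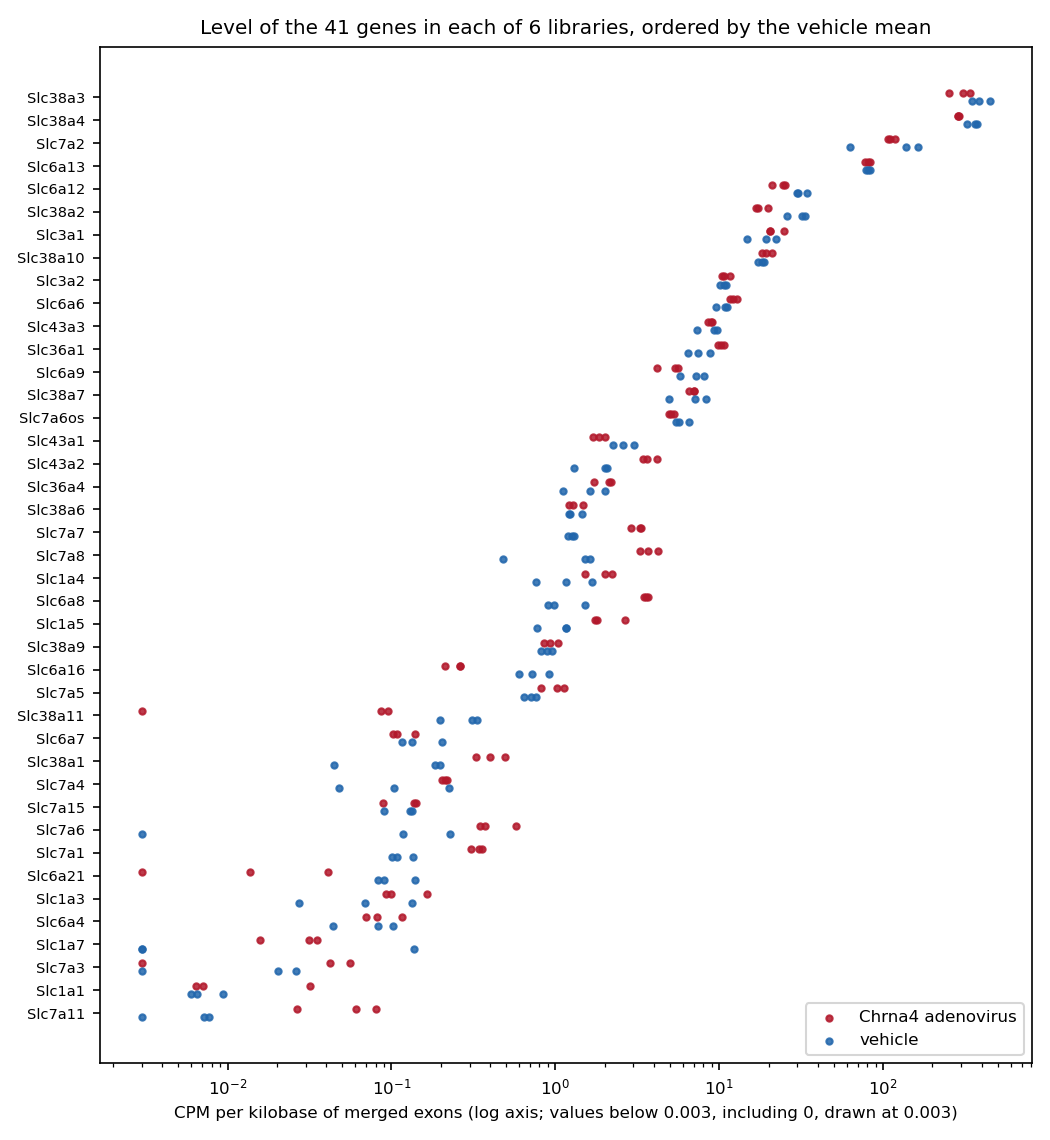
CPM per kilobase of merged exons (log axis) of all 41 genes in each library, red for Chrna4 adenovirus and blue for vehicle, ordered by the vehicle mean. Slc38a3, Slc38a4 and Slc7a2 lie highest in both groups, and Slc7a2 spreads widely among the vehicle libraries.

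Of the 8 tested neutral amino acid carriers of the Slc38 family, Slc38a1 rose, Slc38a2 fell and 6 did not pass the test. That share of calls is near the 24.5% of all genes tested. Slc38a2, the system A carrier that cells raise when starved of amino acids, had 152, 176 and 148 CPM in Chrna4-labelled livers and 228, 295 and 284 CPM in vehicle livers. All 3 Chrna4-labelled values lay below the lowest vehicle value. Its log2 fold change was -0.75 (SE 0.12; limma, adjusted p = 0.00425), and it was -0.42 with plain totals (limma, adjusted p = 0.0417), and -0.50 with quantile normalization (adjusted p = 0.0322).

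Slc38a1, the system A carrier best known from brain and dividing cells, had 5.69, 8.47 and 6.89 CPM in Chrna4-labelled livers and 0.772, 3.16 and 3.43 CPM in vehicle livers. The groups did not overlap, and vehicle replicate 1 was the lowest library. Its log2 fold change was 1.31 (SE 0.34; limma, adjusted p = 0.0231), and 0.89 without vehicle replicate 1 (adjusted p = 0.00522). The call was lost without Chrna4-labelled replicate 1, 2 or 3, at adjusted p = 0.0544, 0.0940 and 0.0723 (limma).

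The liver's own system A carrier, Slc38a4, had 1237, 1226 and 1218 CPM in Chrna4-labelled livers and 1387, 1547 and 1601 CPM in vehicle livers. Slc38a3, the system N carrier that moves glutamine in either direction across the hepatocyte membrane, had 1331, 1630.1 and 1792 CPM in Chrna4-labelled livers and 2359, 1849.9 and 2045 CPM in vehicle livers. Neither pair of groups overlapped, yet neither gene passed the threshold with limma: the log2 fold changes were -0.30 and -0.40, with adjusted p of 0.0811 and 0.0952. DESeq2 called both, at adjusted p = 0.0173 and 0.0392, and limma called Slc38a4 without vehicle replicate 1 (-0.36, adjusted p = 0.0255). With plain totals the same log2 fold changes were 0.037 and -0.065, and with quantile normalization 0.21 and 0.15, so no direction is given for either.

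Slc38a1, Slc38a2 and Slc38a4 are neighbours on the minus strand of chromosome 15 in GRCm38, with 44.5 kb between the first pair and 295 kb between the second. Slc38a1 spans 96571418 to 96642913, Slc38a2 96687392 to 96699730 and Slc38a4 96994820 to 97055956.

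The lysosomal members Slc38a9 and Slc38a7, and also Slc38a10 and Slc38a6, did not pass the test. Slc38a9, which reports lysosomal arginine to the growth kinase mTORC1, had 17.4, 14.2 and 15.5 CPM in Chrna4-labelled livers and 16.0, 13.7 and 14.9 CPM in vehicle livers, with a log2 fold change of 0.069 (95% interval -0.21 to 0.35). Slc38a7, which exports glutamine and asparagine from lysosomes, averaged 28.5 ± 1.18 CPM in Chrna4-labelled livers and 28.2 ± 7.06 CPM in vehicle livers (SD, n = 3 each). Slc38a10 averaged 125.5 ± 9.03 and 116 ± 4.87 CPM in Chrna4-labelled and vehicle livers, and Slc38a6 10.3 ± 1.09 and 10.1 ± 0.998 CPM. Adjusted p ran from 0.451 to 0.925 over the 4 genes (limma). With plain totals Slc38a9 and Slc38a10 were called higher (0.38 and 0.44, limma adjusted p = 0.0372 and 0.00963).

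The light chains Slc7a8, Slc7a7 and Slc7a6 rose, and their heavy chain Slc3a2 did not pass the test. Slc3a2, the heavy chain also known as CD98 or 4F2hc, had 37.9, 41.2 and 36.8 CPM in Chrna4-labelled livers and 35.6, 39.0 and 38.0 CPM in vehicle livers. The values overlapped, and the log2 fold change was 0.039 with a 95% interval of -0.18 to 0.26 (limma, adjusted p = 0.807). Slc3a1, the heavy chain of the cystine and cationic amino acid exchanger, averaged 49.7 ± 5.61 CPM in Chrna4-labelled livers and 42.6 ± 8.58 CPM in vehicle livers (SD, n = 3 each; limma, adjusted p = 0.324). With plain totals both were called higher, at 0.37 and 0.56 (limma, adjusted p = 0.0265 and 0.0315).

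Slc7a8, the light chain LAT2 that exchanges large and small neutral amino acids, had 16.4, 21.2 and 18.4 CPM in Chrna4-labelled livers and 2.39, 8.15 and 7.55 CPM in vehicle livers. Every Chrna4-labelled library lay above every vehicle library, and vehicle replicate 1 was again lowest. The log2 fold change was 1.61 (SE 0.34; limma, adjusted p = 0.0117), and 1.15 without vehicle replicate 1 (adjusted p = 0.000410). Without Chrna4-labelled replicate 2 the call was lost (adjusted p = 0.0537). Per kilobase, Slc7a8 stood at 30.5%, 36.3% and 35.3% of the level of Slc3a2 in Chrna4-labelled livers, and at 4.73%, 14.7% and 14.0% in vehicle livers. This ratio does not depend on the scaling between libraries, and for Slc7a7 it was 30.8%, 28.1% and 27.7% in Chrna4-labelled livers and 12.9%, 11.4% and 11.1% in vehicle livers.

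Slc7a7, the light chain y+LAT1 that exports arginine and lysine and is mutated in lysinuric protein intolerance, had 11.0, 10.9 and 9.59 CPM in Chrna4-labelled livers. In vehicle livers it had 4.32, 4.18 and 3.97 CPM. Libraries of each group lay close together and far from the other group, with a log2 fold change of 1.15 (SE 0.13; limma, adjusted p = 0.00103). Slc7a7 and Slc7a8 lie on the minus strand of chromosome 14, at 54369442 to 54417780 and 54722209 to 54781946, with 304 kb between them. Slc7a7 overlaps the opposite-strand gene Oxa1l by 232 bases, and the sources used here do not say whether counting used the strand.

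Slc7a6, the related light chain y+LAT2, had 2.64, 1.59 and 1.70 CPM in Chrna4-labelled livers and 0, 0.536 and 1.04 CPM in vehicle livers. No vehicle library reached the lowest Chrna4-labelled value, though the values rest on 30 to 45 reads in Chrna4-labelled libraries and 0 to 21 in vehicle libraries. The log2 fold change was 1.01 (limma, adjusted p = 0.0317). It lost its call without Chrna4-labelled replicate 1, 2 or 3 (adjusted p = 0.112, 0.0726 and 0.0759), without vehicle replicate 2 (0.0625), with quantile normalization (0.61, 0.118) and with edgeR's quasi-likelihood test (1.78, 0.0740). Its neighbour Slc7a6os had 20.9, 22.4 and 21.3 CPM in Chrna4-labelled livers and 27.8, 23.1 and 23.8 CPM in vehicle livers, and did not pass (-0.20, limma, adjusted p = 0.240).

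Slc7a5, the light chain LAT1 of growing cells, had 3.05, 3.81 and 4.19 CPM in Chrna4-labelled livers and 2.39, 2.84 and 2.63 CPM in vehicle livers. The groups did not overlap, but the log2 fold change of 0.37 did not pass (limma, adjusted p = 0.135). An annotated gene on the opposite strand, Gm20388, covers the whole of Slc7a5.

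**Figure D3:**
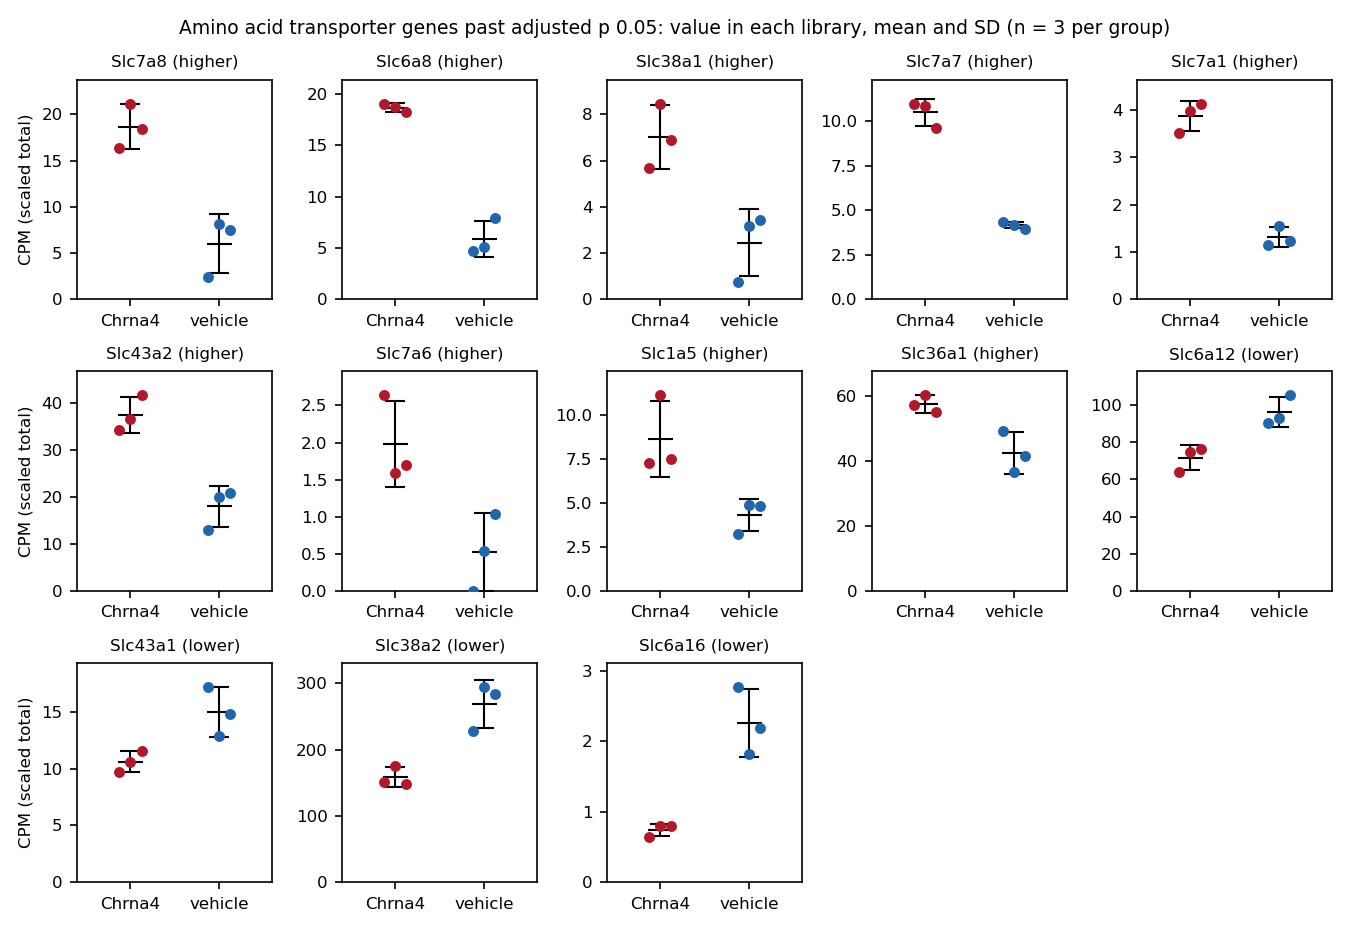
CPM in each library of the 13 genes past an adjusted p of 0.05, with Chrna4-labelled livers left and vehicle livers right; points are libraries, bars are mean and SD (n = 3 each), and each vertical axis starts at 0. The groups do not overlap in any of the 13 panels, and vehicle replicate 1, the leftmost blue point, is the lowest of the 6 libraries in 7 of the 9 higher genes, all but Slc7a7 and Slc36a1.

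Facilitated carriers of branched-chain amino acids, which need no heavy chain, split. Slc43a2, known as LAT4, had 34.3, 36.5 and 41.7 CPM in Chrna4-labelled livers and 13.0, 20.1 and 20.9 CPM in vehicle livers. Its groups lay apart, with a log2 fold change of 1.04 (SE 0.18; limma, adjusted p = 0.00491). Slc43a1, known as LAT3, had 9.68, 10.5 and 11.6 CPM in Chrna4-labelled livers and 17.2, 12.8 and 14.8 CPM in vehicle livers. Its log2 fold change of -0.45 passed narrowly (limma, adjusted p = 0.0469) and was called in 1 of the 6 fits that left out a library, that without vehicle replicate 2. In the other fits the adjusted p was 0.143, 0.140 and 0.0820 without Chrna4-labelled replicate 1, 2 and 3, and 0.0708 and 0.0886 without vehicle replicate 1 and 3. With plain totals it was -0.14 (adjusted p = 0.387). Slc43a3, a carrier of purine nucleobases that lies 73.0 kb from Slc43a1 on chromosome 2, averaged 39.4 ± 1.22 CPM in Chrna4-labelled livers and 39.2 ± 5.69 CPM in vehicle livers (SD, n = 3 each), with a log2 fold change of 0.018 (limma, adjusted p = 0.935).

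Cationic amino acid carriers also differed. Slc7a1, the widely expressed arginine and lysine carrier CAT1 that adult hepatocytes hold at a low level, had 3.52, 3.97 and 4.13 CPM in Chrna4-labelled livers and 1.16, 1.56 and 1.24 CPM in vehicle livers. All Chrna4-labelled values lay above the highest vehicle value, with a log2 fold change of 1.07 (SE 0.16; limma, adjusted p = 0.00271). On the scale of reads, where no pseudocount damps low genes, the estimate of edgeR was 1.56, and with quantile normalization limma gave 0.71 (adjusted p = 0.0144).

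Slc7a2, the low-affinity arginine carrier of the liver, had 1002, 985 and 1088 CPM in Chrna4-labelled livers and 577, 1256 and 1502 CPM in vehicle livers. The Chrna4-labelled values lay between vehicle replicate 1 and the other vehicle libraries. The log2 fold change was -0.0067 with a 95% interval of -0.71 to 0.69 (limma, adjusted p = 0.993), and without vehicle replicate 1 it was -0.42 (adjusted p = 0.0238). With plain totals it was 0.33 and with quantile normalization 0.49, not called in either (limma, adjusted p = 0.427 and 0.279). Vehicle replicate 1 thus decided whether a fall was called. Per kilobase, Slc7a1 was 0.278%, 0.319% and 0.301% of Slc7a2 in Chrna4-labelled livers, and 0.159%, 0.0981% and 0.0655% in vehicle livers.

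Exchangers of the Slc1 family carry alanine, serine, cysteine and glutamine. Slc1a5, the glutamine exchanger ASCT2 of dividing and immune cells, had 7.28, 11.1 and 7.47 CPM in Chrna4-labelled livers and 3.24, 4.88 and 4.82 CPM in vehicle livers. The groups did not overlap and the log2 fold change was 0.85 (SE 0.20; limma, adjusted p = 0.0180). The call was lost without Chrna4-labelled replicate 2 (adjusted p = 0.0750) and with quantile normalization (0.0670). Its relative Slc1a4, or ASCT1, had 5.99, 8.73 and 7.84 CPM in Chrna4-labelled livers and 4.55, 6.60 and 2.98 CPM in vehicle livers, with overlap and a log2 fold change of 0.61 that did not pass (limma, adjusted p = 0.104).

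Carriers of creatine, taurine, betaine and glycine make up the liver's share of the Slc6 family. Slc6a8, the creatine carrier on chromosome X (73673150 to 73682502), had 19.1, 18.7 and 18.2 CPM in Chrna4-labelled livers and 4.71, 5.10 and 7.89 CPM in vehicle livers. Its Chrna4-labelled values lay close together and above the vehicle ones, with a log2 fold change of 1.54 (SE 0.18; limma, adjusted p = 0.00114). Slc6a6, the taurine carrier, had 103, 109 and 99.1 CPM in Chrna4-labelled livers and 91.7, 94.3 and 81.1 CPM in vehicle livers. Those groups did not overlap, but the log2 fold change of 0.22 did not pass (limma, adjusted p = 0.136). It was called with quantile normalization (0.35, adjusted p = 0.0370) and with plain totals (0.55, adjusted p = 0.00408).

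Slc6a12, which carries betaine and GABA, had 63.9, 74.9 and 76.6 CPM in Chrna4-labelled livers and 90.5, 92.8 and 105 CPM in vehicle livers. The groups lay apart, with a log2 fold change of -0.42 (SE 0.11; limma, adjusted p = 0.0236). The call was lost without Chrna4-labelled replicate 1, 2 or 3 (adjusted p = 0.0823, 0.0683 and 0.0501), without vehicle replicate 3 (0.0615), with quantile normalization (0.0685) and with plain totals (-0.09, adjusted p = 0.534). Slc6a13 lies 5.34 kb from it on chromosome 6 and had 225, 234 and 241 CPM in Chrna4-labelled livers and 228, 236 and 242 CPM in vehicle livers. Its interval of -0.21 to 0.18 around -0.014 was the narrowest among the members (limma, adjusted p = 0.925), and with plain totals it was 0.32 (adjusted p = 0.0236).

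Slc6a9, the glycine carrier GlyT1, had 27.6, 28.7 and 21.5 CPM in Chrna4-labelled livers and 37.3, 41.4 and 29.6 CPM in vehicle livers. The values lay apart, but the log2 fold change of -0.46 did not pass with limma (adjusted p = 0.0645); DESeq2 gave 0.0407 and limma without vehicle replicate 3 gave 0.0273. Slc6a9 overlaps Ccdc24 and B4galt2 on the opposite strand. Slc6a16, an orphan of the family, had 0.646, 0.794 and 0.795 CPM in Chrna4-labelled livers and 2.78, 1.82 and 2.18 CPM in vehicle livers, from 11 to 15 and 34 to 44 reads. Its log2 fold change was -0.89 (SE 0.18; limma, adjusted p = 0.00865), -0.71 with plain totals (adjusted p = 0.0124) and, by edgeR on reads, -1.56 (adjusted p = 0.00769).

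Proton-coupled carriers of the Slc36 family sit on lysosomes and the cell surface. Slc36a1, which exports small neutral amino acids from lysosomes, had 57.4, 60.3 and 55.1 CPM in Chrna4-labelled livers and 49.3, 36.5 and 41.7 CPM in vehicle livers. Its groups did not overlap, and the log2 fold change was 0.44 (SE 0.12; limma, adjusted p = 0.0310). It kept its call in 1 of the 6 fits that left out a library, that without vehicle replicate 1 (0.55, adjusted p = 0.00337). The others gave adjusted p of 0.0878, 0.123 and 0.0747 without Chrna4-labelled replicate 1, 2 and 3, and 0.0898 and 0.0649 without vehicle replicate 2 and 3. With plain totals the log2 fold change was 0.77 (adjusted p = 0.00146). Slc36a4 had 14.0, 11.2 and 14.3 CPM in Chrna4-labelled livers and 7.25, 10.7 and 13.1 CPM in vehicle livers and did not pass (0.35, limma, adjusted p = 0.254).

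**Figure D4:**
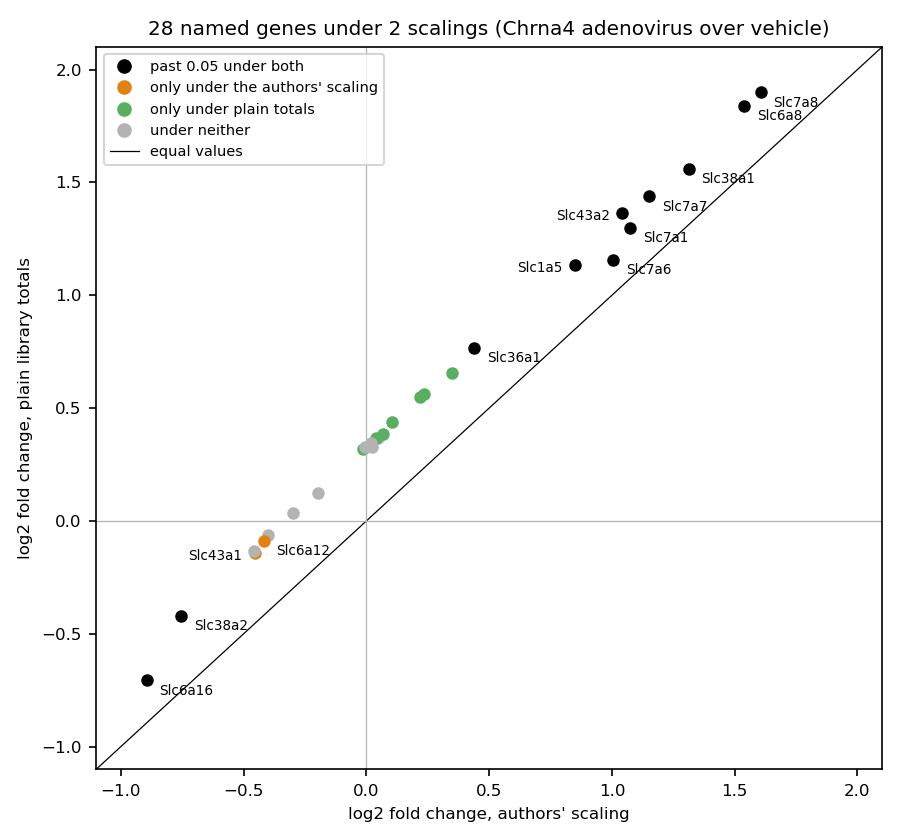
Log2 fold change of the 28 named genes, Chrna4 adenovirus over vehicle, with the authors' scaling (horizontal) and with plain library totals (vertical); colours show which fit passed an adjusted p of 0.05. Points lie on a line above that of equal values; Slc43a1 and Slc6a12 are called with the authors' scaling alone, while Slc38a2 and Slc6a16 are lower under both.

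The 11 members below a mean of 1 CPM ranged from 0 to 1.44 CPM in single libraries, at most 29 reads. Slc7a11, the cystine and glutamate exchanger xCT that supplies cysteine for glutathione, had 1.11, 0.847 and 0.371 CPM in Chrna4-labelled livers and 0, 0.107 and 0.0993 CPM in vehicle livers. Those values rest on 19, 16 and 7 reads in Chrna4-labelled libraries and 0, 2 and 2 reads in vehicle libraries. Slc38a11 was listed the other way, with 0.411, 0.371 and 0 CPM in Chrna4-labelled livers and 0.849, 1.34 and 1.44 CPM in vehicle livers. Slc6a21, 4.14 kb from Slc6a16 on chromosome 7, had at most 3 reads in any Chrna4-labelled library and 6 or 7 in each vehicle library. With no filter on low values, the quasi-likelihood test of edgeR gave these 3 genes adjusted p of 0.0148, 0.0409 and 0.0663, where 21.1% of all genes passed. They were chosen for mention after their values were seen, as were Slc7a5, Slc1a4 and Slc1a3.

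The other 8 untested genes did not pass in that fit. They are the glutamate carriers Slc1a1, Slc1a3 and Slc1a7, the serotonin carrier Slc6a4, the proline carrier Slc6a7, the cationic carrier Slc7a3, and Slc7a4 and Slc7a15. Slc1a3, the highest of them, had 1.41, 0.794 and 0.848 CPM in Chrna4-labelled livers and 0.231, 0.590 and 1.14 CPM in vehicle livers.

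RefSeq promoter entries (GRCm38.p6) matched 30 of the 41 members. The 250 bases before the start nearest the annotated gene end were searched on both strands for TGATGNAAN, the C/EBP-ATF element (CARE) through which ATF4 acts, for TGACNNNGC, the core of the antioxidant element (ARE), and for CACGTG, the core of the lysosomal CLEAR element. No matches overlapped. CARE letters were in 3 of the 30 member windows and 3.44% of all 32851 windows, ARE letters in 5 and 10.2%, and CACGTG in 5 and 6.02%. The CARE windows were those of the higher Slc7a7 and the untested Slc7a11 and Slc6a21. Some RefSeq starts lay far from the end annotated by GENCODE: 5360 bases in Slc6a21, 9472 in Slc3a2 and 1473 in the lower Slc43a1. Of the 6 higher members with an entry, 1 held each motif; of the 4 lower ones, 0 held CARE, 3 held ARE and 2 held CACGTG. A match is a description of letters, not a site. Windows of the higher Slc7a7 and Slc7a1, the lower Slc38a2 and the untested Slc7a11 are shown because they hold CARE or ARE letters in genes of opposite direction. Capitals mark CARE in Slc7a11 (a match on each strand) and Slc7a7, and ARE in Slc7a1 and Slc38a2. They lie at chr3:50443614-50443863, chr14:54417703-54417952, chr5:148399905-148400154 and chr15:96699729-96699978, all on the minus strand.
Slc7a11: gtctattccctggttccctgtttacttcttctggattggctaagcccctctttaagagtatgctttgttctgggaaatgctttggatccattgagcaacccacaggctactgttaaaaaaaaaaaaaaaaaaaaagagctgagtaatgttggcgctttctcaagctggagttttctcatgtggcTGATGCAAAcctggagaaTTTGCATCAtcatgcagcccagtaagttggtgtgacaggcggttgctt
Slc7a7: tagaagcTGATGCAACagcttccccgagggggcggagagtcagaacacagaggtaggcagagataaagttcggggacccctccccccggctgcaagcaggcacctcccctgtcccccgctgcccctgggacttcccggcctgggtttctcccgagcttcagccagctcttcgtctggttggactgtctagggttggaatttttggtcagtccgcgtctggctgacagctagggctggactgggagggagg
Slc7a1: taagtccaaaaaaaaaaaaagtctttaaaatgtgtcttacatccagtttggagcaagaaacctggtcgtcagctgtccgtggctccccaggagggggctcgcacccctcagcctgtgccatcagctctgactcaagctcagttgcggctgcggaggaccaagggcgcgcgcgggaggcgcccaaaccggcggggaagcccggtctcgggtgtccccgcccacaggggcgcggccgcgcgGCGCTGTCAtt
Slc38a2: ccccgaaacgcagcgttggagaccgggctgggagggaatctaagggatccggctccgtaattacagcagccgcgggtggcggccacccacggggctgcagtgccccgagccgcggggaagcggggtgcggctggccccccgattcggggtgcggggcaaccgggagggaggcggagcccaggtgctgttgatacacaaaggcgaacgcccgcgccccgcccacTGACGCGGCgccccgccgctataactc

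In Slc7a11 the CARE matches began 66 and 48 bases before the start, facing each other, and the gene was the lowest of the 41 per kilobase in vehicle livers. In Slc7a7 the match began 243 bases before the start, which RefSeq places 78 bases inside the end annotated by GENCODE. The Slc38a2 window, of the gene that fell, held ARE letters 27 bases before the start and no CARE letters, which says nothing about elements elsewhere in that gene.

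Genes that respond with the carriers to amino acid shortage were followed in a list of 21 ATF4 targets that encode no transporter. Of the 20 tested, 8 were higher and 1 lower, where 14.2% of all genes were higher and 10.3% lower. The median log2 fold change of the list was 0.37. The summed level of the list was 1529 to 1740.4 CPM in Chrna4-labelled livers and 1806 to 1845 CPM in vehicle livers. Abundant genes weigh most in this sum. The highest were Gpt2, with averages of 695 and 765 CPM in Chrna4-labelled and vehicle livers, and Cth, with 310 and 354 CPM. Neither was called (limma, adjusted p = 0.443 and 0.345). Atf4 itself had a log2 fold change of 0.031, Ddit3 of -0.018 and Chac1 of -0.98, and none of the 3 passed (limma, adjusted p = 0.851, 0.953 and 0.129); they were chosen for mention after their values were seen. The stress factor gene Atf3 averaged 15.5 ± 5.45 CPM in Chrna4-labelled livers and 2.24 ± 0.811 CPM in vehicle livers. The gluconeogenic enzyme gene Pck2 averaged 11.9 ± 0.574 and 5.27 ± 0.442 CPM in Chrna4-labelled and vehicle livers. Asns, which makes asparagine, had 14.2, 9.42 and 11.4 CPM in Chrna4-labelled livers and 0.926, 4.51 and 3.03 CPM in vehicle livers. Their log2 fold changes were 2.32, 1.04 and 1.84 (limma, adjusted p = 0.00110, 0.00137 and 0.00734). The lower gene was Shmt2, a mitochondrial serine enzyme named after its value was seen (-0.49, limma, adjusted p = 0.0316), and Slc38a2, a carrier known as an ATF4 target, also fell. With plain totals 11 of the list were higher and 0 lower, where 37.3% of all genes were higher and 2.82% lower. The call of Shmt2 was lost without Chrna4-labelled replicate 1 or 2 or vehicle replicate 2, and 3 of the list were lower without vehicle replicate 3.

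Enzymes that use the carried glutamine, glutamate and ammonia mostly fell where they changed. Of 15 listed and tested, 6 were lower and 1 higher, with a median of -0.39, where 10.3% of all genes were lower and 14.2% higher. With plain totals 2 were lower and 1 higher, where 2.82% of all genes were lower and 37.3% higher. Glul, the glutamine synthetase of perivenous hepatocytes, had 640, 813 and 795 CPM in Chrna4-labelled livers and 1924, 1658 and 1663 CPM in vehicle livers. Oat, the ornithine aminotransferase of the same cells, fell by 1.34 and Otc, of the urea cycle, by 0.51 on the log2 scale; for the 3 genes adjusted p was 0.000915, 0.00137 and 0.00671 (limma). The count of higher genes was 0 without Chrna4-labelled replicate 1 or 3, and the count of lower genes was 3 without Chrna4-labelled replicate 2.

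Other amino acid and peptide carriers, outside the 7 families, had 4 lower and 1 higher of 12 tested, with a median of -0.18. Over all genes, 10.3% were lower and 14.2% higher. With plain totals 0 of these carriers were lower and 2 higher, where 2.82% of all genes were lower and 37.3% higher. Slc17a5, which exports sialic acid from lysosomes, fell by 0.57 and the aromatic amino acid carrier Slc16a10 by 0.61 on the log2 scale (limma, adjusted p = 0.00674 and 0.0170). The higher one was Slc15a3, a lysosomal peptide carrier of macrophages (1.43, limma, adjusted p = 0.0209), named after its value was seen and not called without any 1 of the Chrna4-labelled replicates. The count of lower genes was 2 without Chrna4-labelled replicate 1 or 2. Of 25 tested genes that sense amino acids at the lysosome, 0 were higher and 3 lower, a share near the 10.3% of all genes that were lower. The 3 were Fnip1 (-0.48), Lamtor4 (-0.60) and Lamtor2 (-0.36), with adjusted p of 0.0102, 0.0177 and 0.0485 (limma). With plain totals 9 were higher and 0 lower, where 37.3% of all genes were higher and 2.82% lower. With the authors' scaling the count of lower genes was 0 without Chrna4-labelled replicate 2 and 1 without replicate 3.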

How the data were processed

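The signal deposited by the authors is CPM against library totals that had been scaled: divided by the value of 1 read, 100% of values fell within 0.01 of an integer, and the factors equal those of edgeR's TMM method. The submitters' processing notes name TopHat2, HTSeq, mm10 and GRCm38, and no versions. The authors' deposited log2 fold changes and p-values were used only where said. Recovered reads numbered 14959338 to 22440334 per library.

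limma 3.58.1 (R 4.3.3; lmFit, eBayes with a trend) was run on log2(CPM + 1) over 6 libraries and 12099 genes (mean of 1 or more), without covariates; p was adjusted by Benjamini-Hochberg and called under 0.05. The log2(CPM + 1) scale understates the change of low genes. Alternatives were edgeR 4.0.16, DESeq2 1.42.0, other pseudocounts, filters and scalings, a replicate block and leaving out each library. Simulated data served to test the limma fit. Libraries of a group differed by more than sampling noise (chi-square per degree of freedom from 10.3 to 65.7) and each counted as a sample.

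Members with an adjusted p under 0.05 or a mean of at least 10 CPM are named (28), and the 3 genes with the lowest p of each related list; others were named after their values were seen. The members and lists were chosen with earlier results of these data known. 1 further gene that matches the symbol rule, and 2 genes of the related lists, are not reported here. Coordinates are those of GENCODE M21 (GRCm38), and lengths are of merged exons.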

Additional observations from a re-analysis of the deposited data

How the results depend on the processing

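With plain library totals 20 members were called, 18 higher and 2 lower, against 13, 9 and 4 with the authors' scaling, and 4852 genes in all, 4511 higher and 341 lower. The median log2 fold change of the members was then 0.41, and 0.23 with quantile normalization. Slc6a13 turned to 0.32. DESeq2 called 7 members lower and 1424 genes in all lower, against 1241 with limma, and the filter at a mean of 5 left 1036 higher genes in all. Leaving out 1 library gave 6 to 14 called members, 4 to 9 higher and 2 to 5 lower, and 1442 to 3331 genes in all, 946 to 1913 higher and 496 to 1418 lower. For all genes the lowest counts came without Chrna4-labelled replicate 2 and the highest without vehicle replicate 1. The cause of these changes was not tested. Of the 28 named members, all kept direction and side of the threshold with a pseudocount of 0.5. With edgeR 26 kept their side, and Slc6a13, not called in either, turned from -0.014 to 0.0035. An added alternative chosen after seeing the data, edgeR with no filter, called 14 members.

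The column numbers did not pair the libraries: the correlations of same-numbered deviations were -0.065, -0.018 and 0.021. With the replicate block, 11 members were called, 7 higher and 4 lower, of 2418 genes in all. Slc36a1, Slc43a1 and Slc7a6 were not called there (limma, adjusted p = 0.0578, 0.0884 and 0.0617), and Slc6a9 was (0.0309). The 11 untested members had at most 29 reads in a library, and the size of change that such counts can show was not computed.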

Other observations

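The authors' deposited table gives 17 members an adjusted p under 0.05, 10 higher and 7 lower. The share of all genes under 0.05 by the authors' test is not given here, so the 17 cannot be set against it. They include the 13 called by limma here. The other 4 are Slc7a11, Slc38a11, Slc6a21 and Slc6a9, of which the first 3 lay below a mean of 1 CPM and were not tested with limma.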
